A study of Mus musculus with 13 samples.

Results

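Kcnq1ot1 and Airn are long noncoding RNAs that are transcribed from the paternal copy of 2 imprinted domains, and the genes around them were examined here for H3K27me3. This histone mark is laid down by Polycomb repressive complex 2 and is found at genes that are held silent. The examined set had 10 genes of 55232 in the deposited promoter table. They were Cdkn1c, Phlda2, Slc22a18, Tssc4, Cd81 and Tspan32 of the Kcnq1ot1 domain on chromosome 7, and Igf2r, Slc22a2, Slc22a3 and Airn itself on chromosome 17. They were picked by name and not by a measured value, though with earlier results of these data known. They own 24 of the 77489 promoter rows used. To these were added the H3K27me3 regions that lie within 2 windows, 85 regions on chromosome 7 between 142.8 and 143.5 Mb and 9 on chromosome 17 between 12.4 and 13.0 Mb. Together these are 94 of the 57909 regions. One more region, at Phlda2, crosses the edge of the chromosome 7 window and is described with it.

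The libraries came from double knockout (DKO) cells, which lack the nuclear RNA-binding proteins SAFB and SAFB2, and from WT cells. Both belong to a male embryonic stem cell (ESC) line of mixed CAST and B6 parentage with a cassette-exchange site at Rosa26. DKO and WT cells alike had 3 days of doxycycline, whose target the sources used here do not name, and were fixed with 0.6% formaldehyde. There were 4 DKO and 5 WT libraries for H3K27me3, and 2 DKO and 2 WT libraries for total H3, the histone itself whatever its marks. The knockout is represented by 2 clones, clone 4 in DKO replicate 1 for H3K27me3 and clone 13 in every other DKO library. The names of the WT H3K27me3 libraries carry 3 stems, 1 shared by replicates 1, 4 and 5 and 1 each for replicates 2 and 3, and whether these are separate clones is not stated. Names of WT replicates 4 and 5 and of DKO replicates 3 and 4 also carry Old or New, whose meaning is not stated. The labels do not say that replicates came from separate cultures, so each p-value reflects library-to-library spread that may be purely technical. Column names carry the tag b6, and nothing says whether reads of both parental copies were counted, so no value below is a value of 1 allele.

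In both domains the paternal noncoding RNA is known to silence flanking genes on the same chromosome, most widely in the placenta, and Polycomb complexes and their marks spread over the silenced stretch there. Kcnq1ot1 starts inside an intron of Kcnq1, a potassium channel gene, and runs antisense to it. Airn starts inside an intron of Igf2r and runs antisense across the Igf2r start. In undifferentiated ESCs Igf2r is known to be expressed from both copies.

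Depth was 1818647 to 3134799 counts over regions per H3K27me3 library, 798466 to 1427771 over promoter rows, and 525847 to 736566 over regions per H3 library. The promoter rows of the knocked-out genes cannot check the genotype labels, since a histone mark does not report on the deletion and the Safb and Safb2 rows overlap. The DKO libraries together had 0 reads in these rows, and the WT libraries together had 3 at Safb2 and 4 at Safb. As a check of the cell type, the promoter of the ESC factor Pou5f1 carried 4.55 ± 1.05 CPM of H3K27me3 in DKO (SD, n = 4) and 4.94 ± 2.93 CPM in WT (SD, n = 5). That of Cdx2, a trophoblast factor silent in ESCs, carried 340 ± 36.6 CPM in DKO and 377 ± 29.1 CPM in WT. In means over all 9 libraries, the 10 ESC markers listed ranged from 0 to 102 CPM (median 4.42). The 8 trophoblast markers ranged from 10.2 to 361 CPM (median 47.6). These ranges overlapped, with the ESC factors Klf4 and Esrrb at 102 and 37.0 CPM and the trophoblast factor Eomes at 10.2 CPM. The check is therefore weak. CPM, the level used throughout, is the count divided by the library's TMM-scaled total and brought to a common total.

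The mark at the start of a gene could be read in the promoter table for only part of the set. A promoter row covers 3001 bp around a start site, and a read that touches more than 1 row was not counted. Phlda2 and Slc22a3 have rows free of overlap. The Cdkn1c rows overlap each other, and the higher of them kept 54 bp of its own and 3.91 ± 1.51 CPM in DKO against 3.19 ± 1.20 CPM in WT. Igf2r kept 33 bp, each Slc22a2 row 61 bp, the Tspan32 rows at most 98 bp and the Tssc4 rows at most 399 bp. These low counts come with little countable sequence and do not show a low level. The region counts have no such limit and are used for Cdkn1c and Igf2r.

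**Figure D1:**
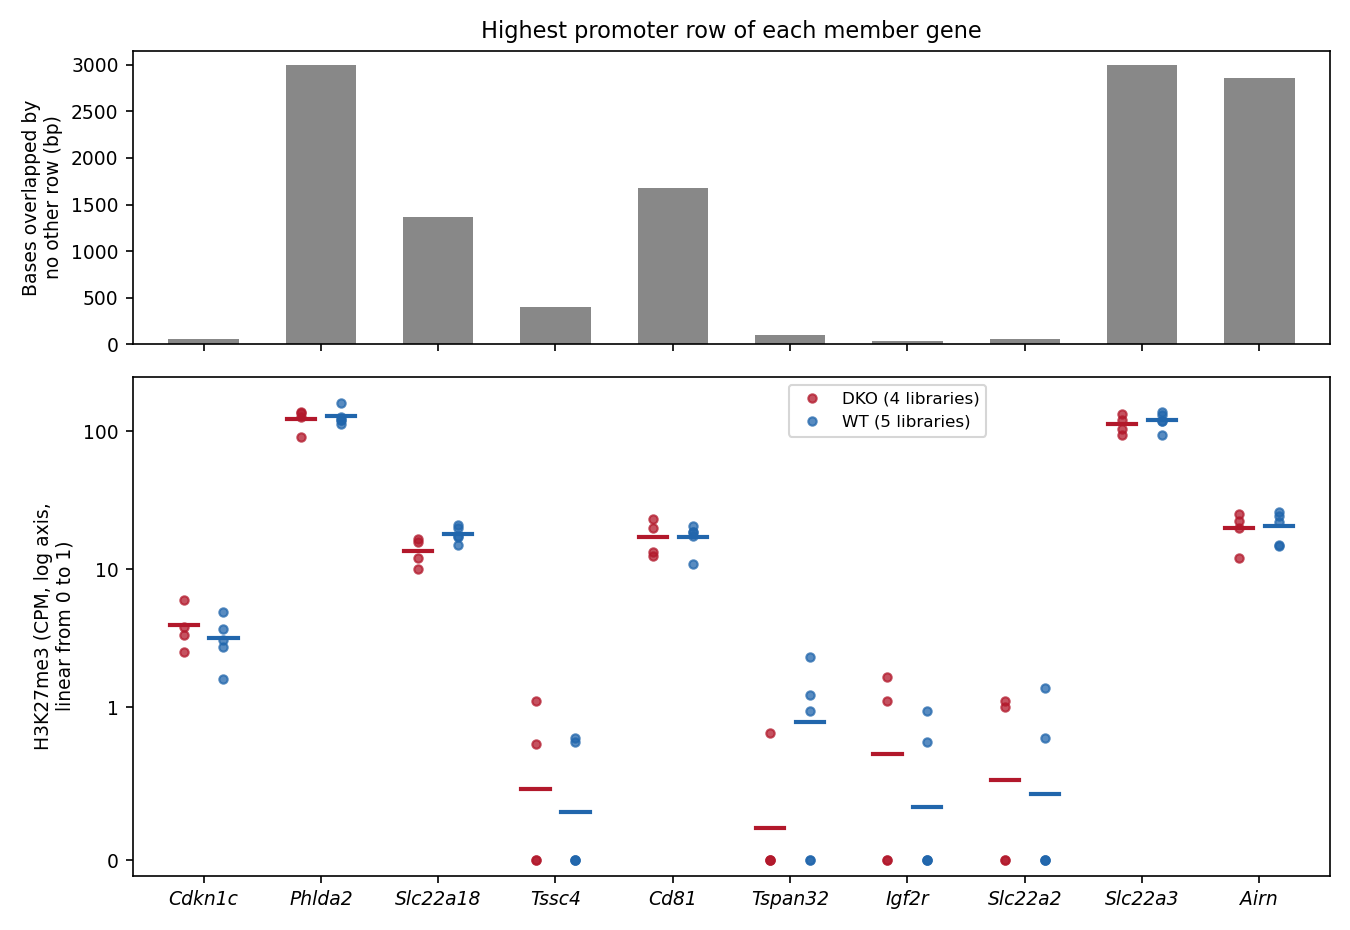
The highest promoter row of each gene, with the bases that no other row overlaps (top, bp) and the H3K27me3 level of each library (bottom, CPM on a log axis that is linear below 1). DKO libraries stand left of WT libraries and bars are means. The genes near 0 are those with few bases of their own, while Phlda2 and Slc22a3 lie near 100 CPM in both genotypes.

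Of the 10 genes, 5 had their start site inside an H3K27me3 region. They were Cdkn1c and Phlda2 at the Kcnq1ot1 domain, and Slc22a3, Airn and Igf2r on chromosome 17. No start site of Slc22a18, Tspan32, Cd81, Tssc4 or Slc22a2 fell in a region. The sequences upstream of 6 start sites are shown so that starts inside and outside regions can be compared in CG dinucleotides, which stand in capitals and are a feature often tied to this mark. Each is the 250 bases before a start, 5′ to 3′, from RefSeq on GRCm38.p6. The first 4 belong to starts inside a region, Igf2r (chr17:12769707-12769956, minus strand), Phlda2 (chr7:143502525-143502774, minus strand), Slc22a3 (chr17:12507705-12507954, minus strand) and Airn (chr17:12741061-12741310, plus strand), and the last 2 to starts outside any region, Tssc4 (chr7:143069118-143069367, plus strand) and Cd81 (chr7:143052500-143052749, plus strand).
Igf2r: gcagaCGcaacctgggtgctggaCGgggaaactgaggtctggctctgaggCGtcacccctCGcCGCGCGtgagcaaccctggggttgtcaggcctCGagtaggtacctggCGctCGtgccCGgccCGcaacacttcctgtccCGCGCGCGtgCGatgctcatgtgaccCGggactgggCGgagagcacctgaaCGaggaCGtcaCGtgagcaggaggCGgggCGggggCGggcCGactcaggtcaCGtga
Phlda2: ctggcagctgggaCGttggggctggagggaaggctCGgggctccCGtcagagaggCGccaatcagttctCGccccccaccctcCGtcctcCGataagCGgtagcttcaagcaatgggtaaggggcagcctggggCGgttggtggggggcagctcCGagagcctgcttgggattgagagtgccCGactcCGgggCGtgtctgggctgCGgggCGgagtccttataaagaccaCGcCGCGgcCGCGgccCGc
Slc22a3: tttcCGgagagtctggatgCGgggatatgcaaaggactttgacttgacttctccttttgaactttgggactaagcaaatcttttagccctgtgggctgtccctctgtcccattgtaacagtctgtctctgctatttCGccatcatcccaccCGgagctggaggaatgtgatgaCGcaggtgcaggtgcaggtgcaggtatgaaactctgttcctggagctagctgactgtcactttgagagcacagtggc
Airn: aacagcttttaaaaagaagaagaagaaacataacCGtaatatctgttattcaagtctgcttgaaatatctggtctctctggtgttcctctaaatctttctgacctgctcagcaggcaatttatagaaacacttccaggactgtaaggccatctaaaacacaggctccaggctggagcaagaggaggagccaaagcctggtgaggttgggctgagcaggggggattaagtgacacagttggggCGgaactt
Tssc4: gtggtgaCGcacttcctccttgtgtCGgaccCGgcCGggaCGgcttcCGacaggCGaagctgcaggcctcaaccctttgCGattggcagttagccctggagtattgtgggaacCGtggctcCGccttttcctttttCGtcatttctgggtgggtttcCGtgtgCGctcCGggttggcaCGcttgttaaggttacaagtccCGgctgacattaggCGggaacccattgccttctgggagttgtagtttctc
Cd81: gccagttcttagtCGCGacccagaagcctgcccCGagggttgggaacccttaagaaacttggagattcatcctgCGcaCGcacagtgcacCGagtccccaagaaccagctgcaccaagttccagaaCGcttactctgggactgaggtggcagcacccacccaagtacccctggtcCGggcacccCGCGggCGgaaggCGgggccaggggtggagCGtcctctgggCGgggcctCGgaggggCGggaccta

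Counted over 300 bases, from 250 before to 50 after a start, the starts in regions held 34 CG at Igf2r, 26 at Phlda2, 5 at Slc22a3 and 3 at Airn. The starts outside regions held 23 at Tssc4, 23 at Cd81, 8 at Slc22a2, 2 at Slc22a18 and 2 at Tspan32. The median of 32851 RefSeq promoters of this length was 7, and 7.73% held at least as many as Igf2r, while 76.7% held at least as many as Airn. CG reads the same on both strands. The number of CG therefore did not sort these 9 starts into those inside and outside a region. Cdkn1c, whose start lies in a region, had no RefSeq promoter sequence and is not among them.

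Levels at the promoter rows did not differ detectably between genotypes. Of the 24 rows, 6 had enough reads to be tested, and 0 passed edgeR's quasi-likelihood test at a Benjamini-Hochberg adjusted p under 0.05, against 0.628% of the 32647 promoter rows tested. All 6 had an unadjusted p above 0.05 as well, and DESeq2 called 0 of them. Phlda2, whose product restrains placental growth, had 139, 128, 137 and 91.7 CPM in the DKO libraries, against 128, 121, 161, 121 and 113 CPM in the WT libraries. The groups overlap, and the log2 fold change was -0.048 (SE 0.13). Slc22a3, an organic cation transporter, had 122, 105, 94.4 and 134 CPM in DKO libraries, against 132, 120, 138, 94.0 and 119 CPM in WT libraries. These also overlap, with a log2 fold change of -0.074 (SE 0.13).

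The other tested rows held lower levels than Phlda2 and Slc22a3 in both genotypes. Cd81, a tetraspanin of the cell surface, averaged 17.2 ± 5.13 CPM in DKO and 17.3 ± 3.70 CPM in WT (log2 fold change -0.026, SE 0.24). Its row kept 1678 bp of its own. The 1 Airn row with enough reads to test has its start site inside the transcript, at position 12815931, and averaged 19.9 ± 5.58 CPM in DKO and 20.4 ± 5.28 CPM in WT (-0.0064, SE 0.23). Slc22a18, a transporter of the same family as Slc22a3, has 2 rows that share most of their bases, and each kept 1365 bp of its own. The start site of the higher row, at 143473736, lies in the shared part, where reads were not counted. The higher averaged 13.7 ± 3.08 CPM in DKO and 18.1 ± 2.28 CPM in WT, with 10.0, 16.6, 12.2 and 15.8 CPM against 17.5, 15.1, 17.1, 19.9 and 20.8 CPM in single libraries. Its log2 fold change was -0.44 (SE 0.25, unadjusted p = 0.081), and that of the other row was 0.22 (SE 0.26). With 148 to 186 reads per row over all 9 libraries, the SE at these 4 rows was 0.23 to 0.26.

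The map of region levels shows where the mark lies in each domain. On chromosome 7 the highest levels per length stood at the Cdkn1c end. Cdkn1c encodes an inhibitor of cyclin-dependent kinases, and its start lies in a region of 12653 bp (143455059 to 143467711, build mm10). That region held 27.1 ± 1.31 CPM per kb in DKO (SD, n = 4) and 31.0 ± 1.92 CPM per kb in WT (SD, n = 5), more per kb than 99.4% of all regions. The next region toward Kcnq1, 13497 bp long (143435774 to 143449270) with no annotated gene, held 23.0 ± 1.14 CPM per kb in DKO and 24.8 ± 2.62 CPM per kb in WT. Phlda2 stood at 16.9 ± 2.48 CPM per kb in DKO and 18.0 ± 1.80 CPM per kb in WT. The start of Kcnq1 (143104929 to 143110317) held 20.8 CPM per kb in DKO and 23.5 in WT, and Ascl2, a trophoblast factor, 15.7 in DKO and 17.8 in WT.

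**Figure D2:**
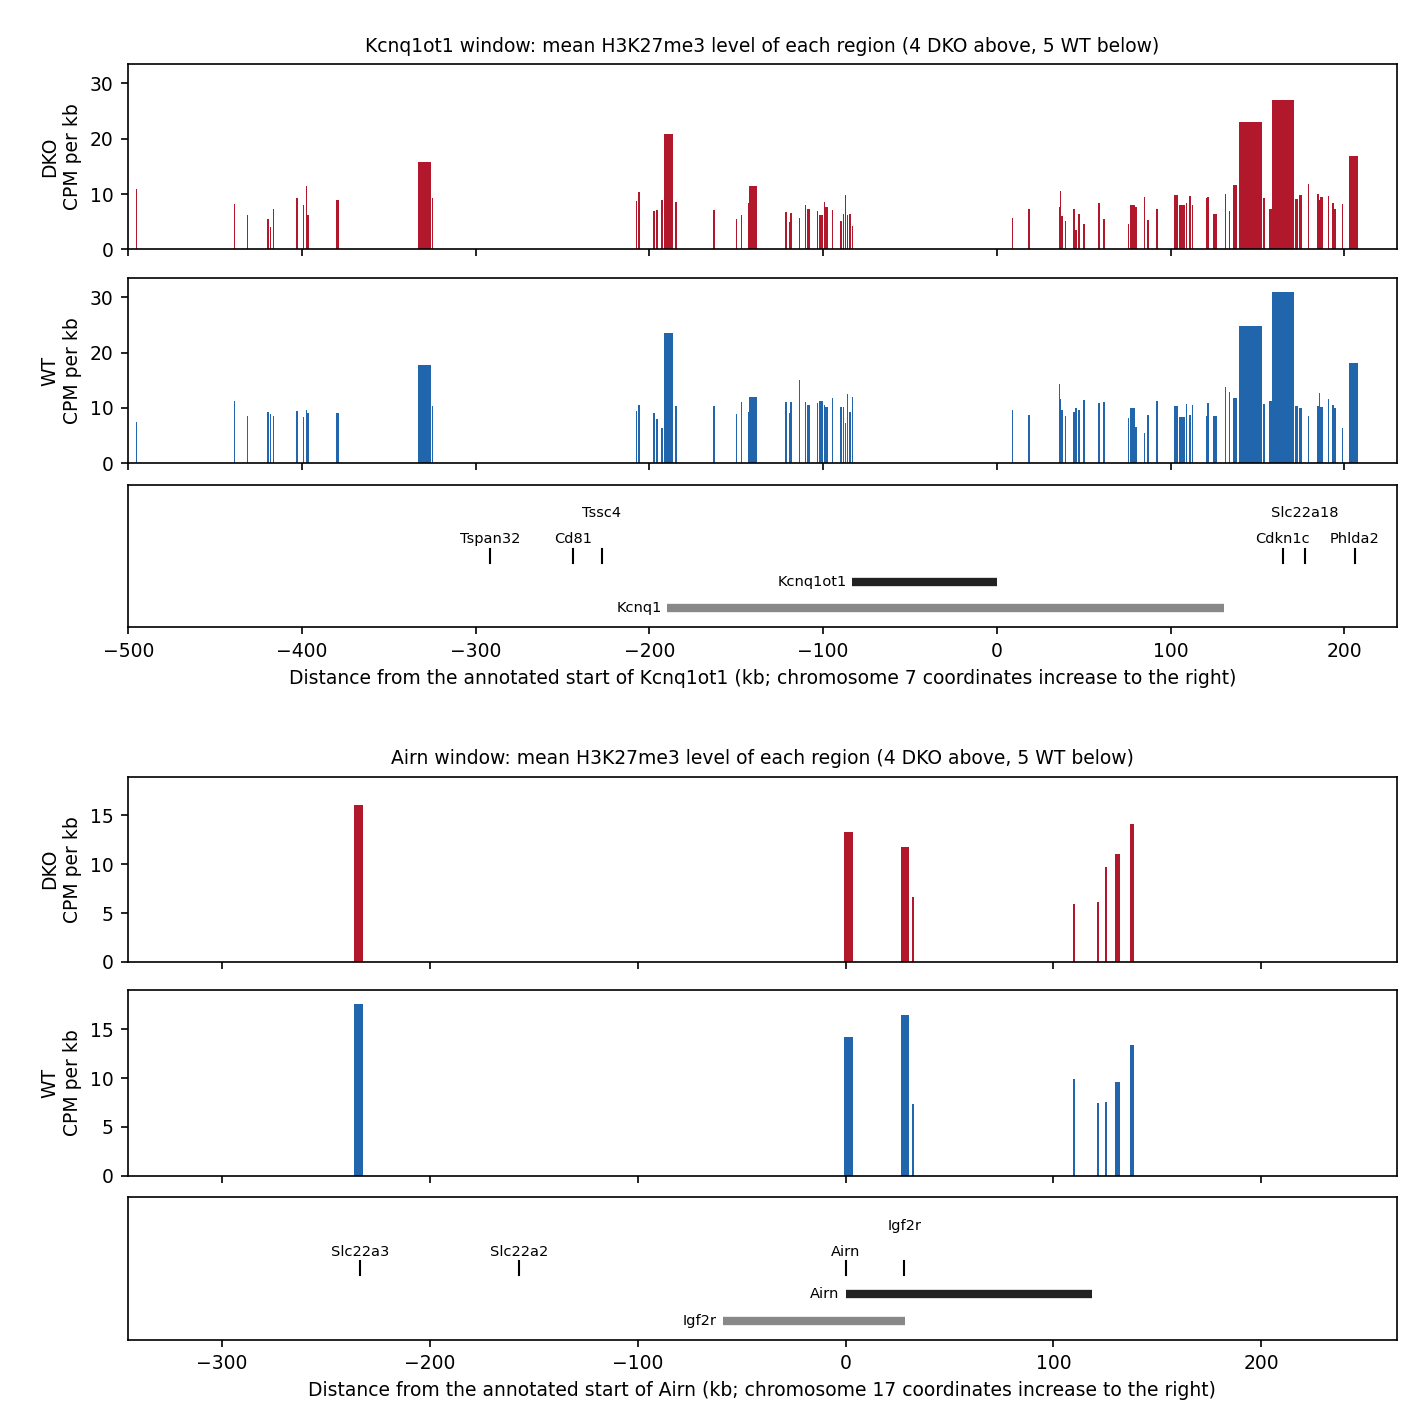
Mean H3K27me3 level of each region (CPM per kb of region, TMM scaled) against its distance in kb from the annotated start of Kcnq1ot1 (top) or Airn (bottom). DKO (4 libraries) stands above WT (5 libraries), bars are as wide as the regions, grey and black bars mark transcribed spans, and ticks mark start sites. The peaks at Cdkn1c and the empty span of Kcnq1ot1 are seen in both genotypes.

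Long stretches of both windows held no region in either genotype. The first, of 116.6 kb, covers Tspan32, Cd81 and Tssc4 (142971995 to 143088579). The second, of 91.6 kb (143213362 to 143305001), spans almost all of the Kcnq1ot1 transcript, which RefSeq places from 143213111 to 143296547. On chromosome 17 a stretch of 231 kb (12509311 to 12740485) covers Slc22a2, an organic cation transporter, and most of the Igf2r gene body. Slc22a3 lies at its far edge. Regions again appear at the start of Airn, at the start of Igf2r and beyond the Airn 3′ end.

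**Figure D3:**
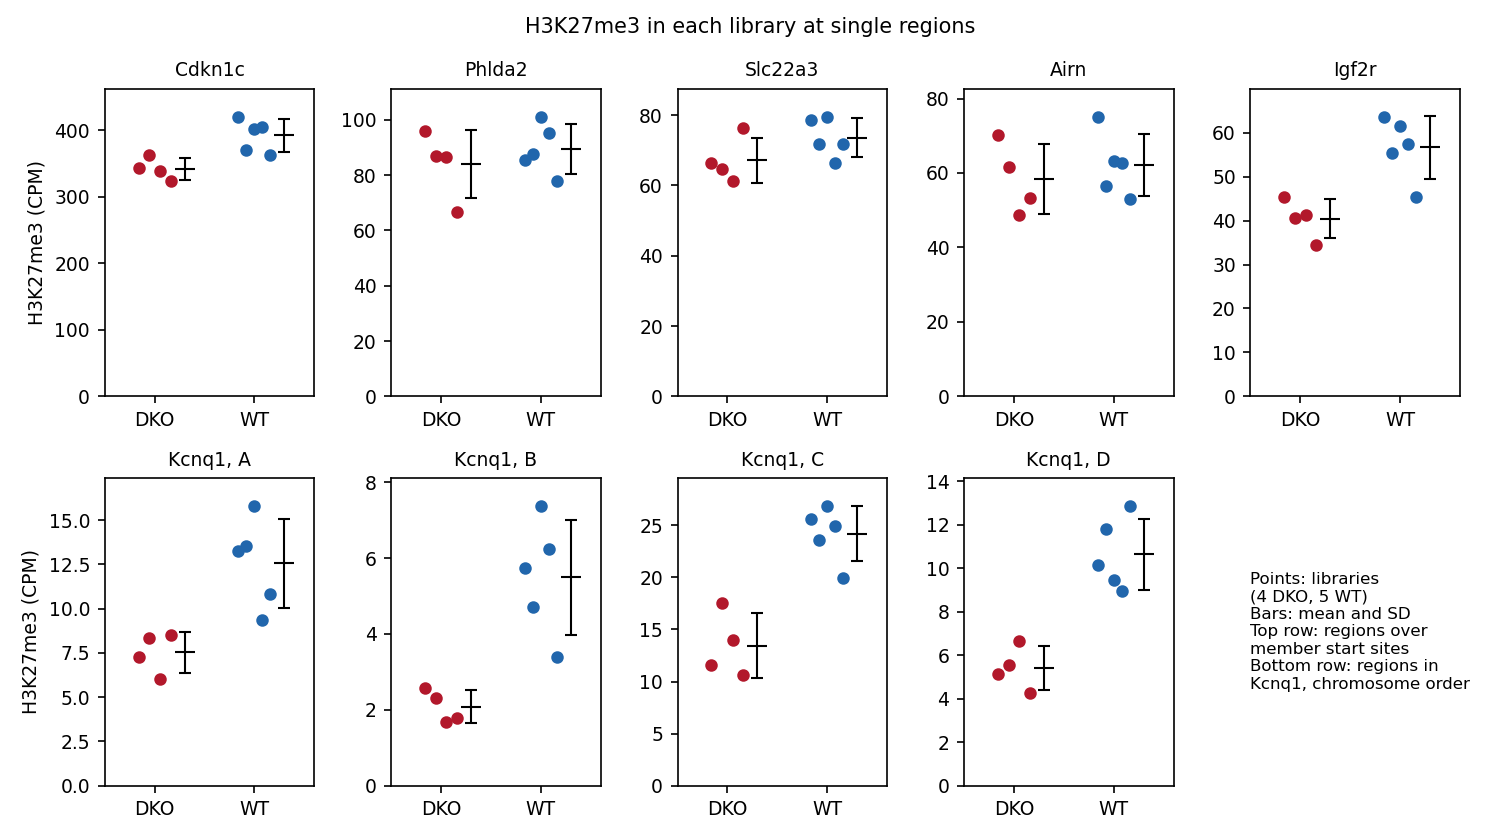
H3K27me3 level (CPM) of each library, DKO left of WT, at the 5 regions over start sites (top) and at 4 regions within Kcnq1 (bottom), with mean and SD beside the points. At Igf2r 3 of 4 DKO libraries, all 3 of clone 13, lie below every WT library. At the 4 Kcnq1 regions all DKO libraries lie below every WT library. These 4 are from the WT-specific list, which favours such a separation.

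At the Igf2r start H3K27me3 was lower in DKO. Igf2r encodes the receptor that takes up and degrades IGF2. Its start lies in a region of 3436 bp (chromosome 17, 12768198 to 12771633) that the authors' lists class as shared. It had 45.4, 40.7, 41.4 and 34.4 CPM in the DKO libraries, against 63.6, 55.4, 61.6, 57.3 and 45.3 CPM in the WT libraries. DKO replicates 2, 3 and 4 lay below every WT library, and DKO replicate 1 stood level with WT replicate 5. Replicates 2, 3 and 4 are all of clone 13, and replicate 1 is the only library of clone 4. A separation from every WT library was therefore seen in a single clone. The means were 40.5 ± 4.53 CPM in DKO and 56.6 ± 7.12 CPM in WT, a log2 fold change of -0.48 (SE 0.13, edgeR adjusted p = 0.0108). Among all 27473 shared regions tested, 1.82% were called lower in DKO.

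Total H3 over the same Igf2r region stood at 84.1 and 50.6 CPM in DKO and 73.6 and 43.4 CPM in WT (log2 fold change 0.16, SE 0.29). The Igf2r call was kept in 16 of 21 alternatives and lost in 5. It was lost without DKO replicate 4, at a log2 fold change of -0.40 (edgeR adjusted p = 0.0773). It was also lost within the libraries whose names carry Old or New (-0.42, adjusted p = 0.173) and within those that carry neither (-0.49, adjusted p = 0.316), which are sets of 4 and 5 libraries. The last losses were with the WT libraries of 1 stem (-0.45, adjusted p = 0.0654) and in the interaction with total H3 (-0.67, adjusted p = 0.725).

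The other start-site regions of the Airn domain overlapped between genotypes. The Airn start (12740486 to 12744874) had 70.2, 61.5, 48.7 and 53.2 CPM in DKO libraries, against 75.1, 56.6, 63.2, 62.8 and 53.1 CPM in WT libraries. Its means were 58.4 ± 9.48 CPM in DKO and 62.1 ± 8.38 CPM in WT (log2 fold change -0.097, SE 0.12). The Slc22a3 start (12505124 to 12509310) averaged 67.2 ± 6.42 CPM in DKO and 73.6 ± 5.46 CPM in WT (-0.13, SE 0.11). Beyond the Airn 3′ end, the regions at 12870983 to 12873498 and 12878369 to 12880228 stood at 0.21 (SE 0.16) and 0.077 (SE 0.16). Over the 7 tested regions of this window 5 were lower and 2 higher in DKO, and the median log2 fold change was -0.13, against -0.02 over all 40418 regions tested.

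At Cdkn1c the mark was slightly lower in DKO but did not pass the test. The region had 344, 363, 338 and 323 CPM in the DKO libraries, against 420, 371, 402, 406 and 363 CPM in the WT libraries. DKO replicates 1, 3 and 4 lay below every WT library, and DKO replicate 2 matched WT replicate 5. The means were 342 ± 16.6 CPM in DKO and 392 ± 24.4 CPM in WT, with a log2 fold change of -0.20 (SE 0.066, unadjusted p = 0.00284, edgeR adjusted p = 0.0610). This is the most deeply counted region of the set, with 630 to 1073 reads per library. It passed under 4 of 21 alternatives, with adjusted p from 0.0237 to 0.539 over all of them. Within libraries with Old or New in the name the log2 fold change was -0.21, and within the others -0.18.

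Total H3 at Cdkn1c moved the other way, at 305 and 251 CPM in DKO and 219 and 205 CPM in WT (log2 fold change 0.37, SE 0.15, unadjusted p = 0.0114, adjusted p = 0.684). Phlda2 showed the reverse pattern in total H3, with 55.2 and 84.3 CPM in DKO and 108 and 109 CPM in WT (-0.59, SE 0.24, unadjusted p = 0.0136, adjusted p = 0.691). Its H3K27me3 region (143499336 to 143504299) had 84.0 ± 12.3 CPM in DKO and 89.5 ± 8.94 CPM in WT (-0.091, SE 0.10). At the neighbouring high regions the log2 fold changes of the mark were -0.10 (SE 0.069) beside Cdkn1c, -0.18 (SE 0.090) at the Kcnq1 start, -0.19 (SE 0.092) at Ascl2 and -0.078 (SE 0.12) at a region within Kcnq1 (143154089 to 143158337). None of these passed.

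H3K27me3 was also lower in DKO inside Kcnq1, between its start and the 3′ end of Kcnq1ot1. There 4 regions were called lower, and they are given here as A to D along the chromosome. The authors' lists class all 4 as WT-specific, so that a lower level in DKO is largely fixed by the choice of list. Of the 4504 such regions tested, 99.4% were lower in DKO and 5.73% were called lower. Region C (143194150 to 143196313) had 11.6, 17.6, 14.01 and 10.6 CPM in DKO libraries, against 25.6, 23.6, 26.8, 25.0 and 20.0 CPM in WT libraries. The groups did not overlap, as at 3.4% of all tested regions where every DKO library lay below every WT library. That share covers regions of every class. The share among WT-specific regions, where the list favours such a separation, was not computed. Its means were 13.4 ± 3.09 CPM in DKO and 24.2 ± 2.64 CPM in WT, a log2 fold change of -0.85 (SE 0.18, edgeR adjusted p = 0.000892).

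Region A (143177714 to 143178844) averaged 7.53 ± 1.15 CPM in DKO and 12.6 ± 2.51 CPM in WT (log2 fold change -0.71, SE 0.23, adjusted p = 0.0499). Region B (143182651 to 143183013), of only 363 bp, averaged 2.08 ± 0.43 CPM in DKO and 5.49 ± 1.52 CPM in WT (-1.38, SE 0.38, adjusted p = 0.0185). It rests on 5 to 6 reads per DKO library and 8 to 16 per WT library. Region D (143210151 to 143211007) averaged 5.40 ± 1.00 CPM in DKO and 10.6 ± 1.63 CPM in WT (-0.97, SE 0.25, adjusted p = 0.00988). In each of the 3, every DKO library lay below every WT library, and region D ends close to the annotated 3′ end of Kcnq1ot1.

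Total H3 at regions A, C and D showed log2 fold changes of 0.13, -0.13 and 0.25, with SE from 0.31 to 0.55, and B had too few H3 reads to test. The call of region C was kept in 18 of 21 alternatives and was lost within each set of library names (-0.84 and -0.81) and in the interaction with total H3. Region A lay at the threshold and was called in only 1 of 20 alternatives, without WT replicate 4, with edgeR or DESeq2 adjusted p from 0.0363 to 0.766 over them. Region B had enough reads to be tested in 13 alternatives, which leave out those without WT replicate 1, 2, 3 or 4, and was called in 9. Among its losses were those without DKO replicate 3 (edgeR adjusted p = 0.0982) and without DKO replicate 4 (0.0608). Region D was called in 13 of 19, and among its losses were those without DKO replicate 4 (0.0521) and without WT replicate 5 (0.0573). DESeq2 gave B and D no adjusted p, and neither is counted as tested there.

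**Figure D4:**
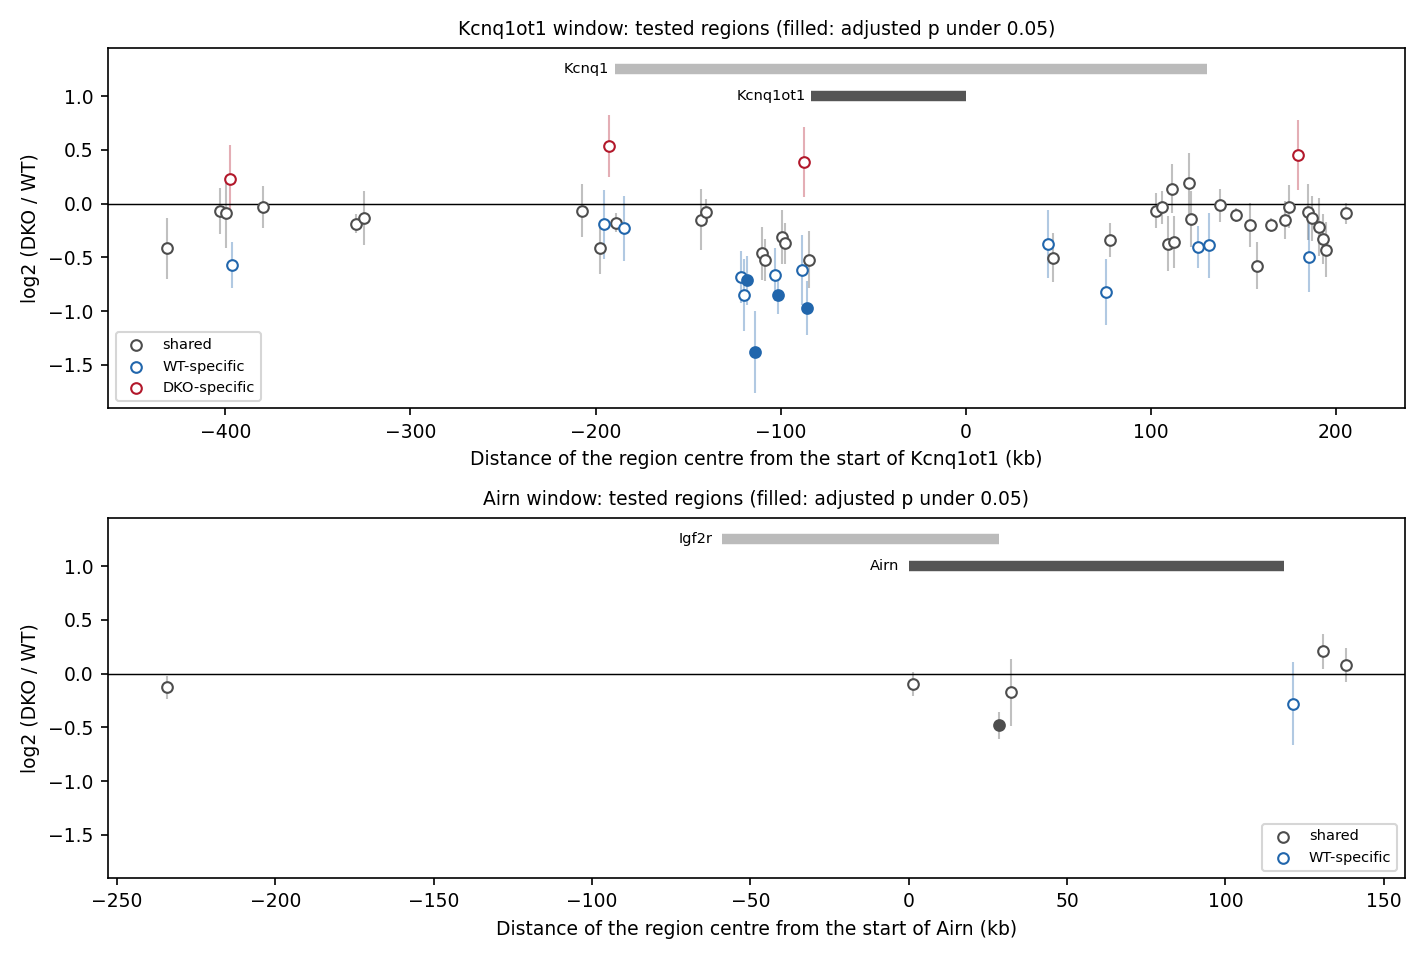
Log2 fold change of H3K27me3 (DKO over WT, with SE) of every tested region against the distance of its centre from the start of Kcnq1ot1 (top) or Airn (bottom) in kb, coloured by the authors' class. Filled points passed the test. Filled points in the upper panel lie between -118 and -86 kb, in Kcnq1 beyond the 3′ end of Kcnq1ot1, and the single filled point below is the Igf2r start.

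Counted over both windows, 5 of 64 tested regions were called, all lower in DKO. Over all tested regions 4.03% were called, 1.88% lower and 2.16% higher. An unadjusted p under 0.05 was found for 18 of the 64, against 7900 of all 40418 regions tested. The 64 include 17 WT-specific regions, low in DKO by selection, which hold 4 of the 5 calls and 10 of the 18. Among the 43 shared regions of both windows 1 was called, and 1.82% of all shared regions were called lower. An unadjusted p under 0.05 was found for 8 of these 43, against 3780 of all 27473 shared regions tested. In the Kcnq1ot1 window 51 of 57 tested regions were lower in DKO (median log2 fold change -0.23), against 51.8% of all regions. Since many regions in the window are WT-specific, the shared regions are the ones whose direction the lists do not fix. Of these, 35 of 37 were lower and 2 higher, with a median of -0.18, against 58.4% lower and a median of -0.05 over all 27473 shared regions. Off chromosomes 6 and 11, which hold many of the genotype-specific regions, 51.3% of shared regions were lower. A similar median was seen outside the window, at the promoter rows of 8 reference genes that Polycomb marks. These were Hoxd13, Hoxc4, Hoxb1, Hoxa9, Gata4, Gata6, Pax6 and Sox1, with 6 lower in DKO, 2 higher and a median of -0.17. Of these 8, 0 passed. Promoter rows and regions are unlike measures, so the sizes compare only roughly. Neighbouring regions are not independent, no test was made of the 37 as a list, and 0 of the 37 passed alone.

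This direction moved with the scaling and with single libraries. With library totals in place of TMM, 29 of the 37 shared regions were lower (median -0.11), and without DKO replicate 4, 27 of 38 (-0.14). Over 21 alternatives the median of the shared regions lay between -0.57 and -0.11. The -0.57 came from the interaction with total H3, which sets the change in the mark against that in total H3. The next lowest median was -0.23, with the replicate number as a block. In the Airn window the median lay between -0.17 and 0.01 over all regions and between -0.14 and 0.02 over shared regions. Both changed sign.

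The shared regions were also split by position, in segments chosen after the values were seen, and differences between segments were not tested. Before the Kcnq1 start all 8 tested shared regions were lower in DKO, with a median of -0.11. Between that start and the 3′ end of Kcnq1ot1 all 8 were lower, with a median of -0.34. From the Kcnq1ot1 start to the end of Kcnq1 7 of 9 were lower (median -0.14), and beyond Kcnq1, toward Cdkn1c and Phlda2, 12 of 12 (median -0.18). Their summed levels, which weight the large regions, were nearly even along the window, at log2 ratios of -0.11, -0.16, -0.11 and -0.10 in the same order. The segment between the Kcnq1 start and the 3′ end of Kcnq1ot1 also held 9 tested WT-specific regions, with a median of -0.71. The Kcnq1ot1 span had 1 region at its edge, too low to test.

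The mix of regions also differed from the rest of the genome. Of the 85 regions in the Kcnq1ot1 window, 37 were WT-specific (43.5%), 39 shared and 9 DKO-specific. The WT-specific share was 18.8% over all regions and 10.4% off chromosomes 6 and 11. In the Airn window 2 of 9 were WT-specific, 6 shared and 1 DKO-specific. The sources used here do not say how the lists were made, so these shares are a description and were not tested.

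Summed over the 37 WT-specific regions of the Kcnq1ot1 window, H3K27me3 was 140, 146, 143 and 126 CPM in DKO libraries, against 222, 208, 224, 227 and 187 CPM in WT libraries, on library totals. The groups are apart, by selection, and the log2 ratio of their means was -0.62. The same ratio over all WT-specific regions off chromosomes 6 and 11 was -0.49. Over the 39 shared regions the sum was 1246 ± 64.5 CPM in DKO and 1346 ± 83.4 CPM in WT, a log2 ratio of -0.11 against -0.03 off chromosomes 6 and 11. There 1 of 4 DKO libraries lay below every WT library. The 9 DKO-specific regions summed to 39.0 ± 2.81 CPM in DKO and 29.1 ± 3.81 CPM in WT.

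**Figure D5:**
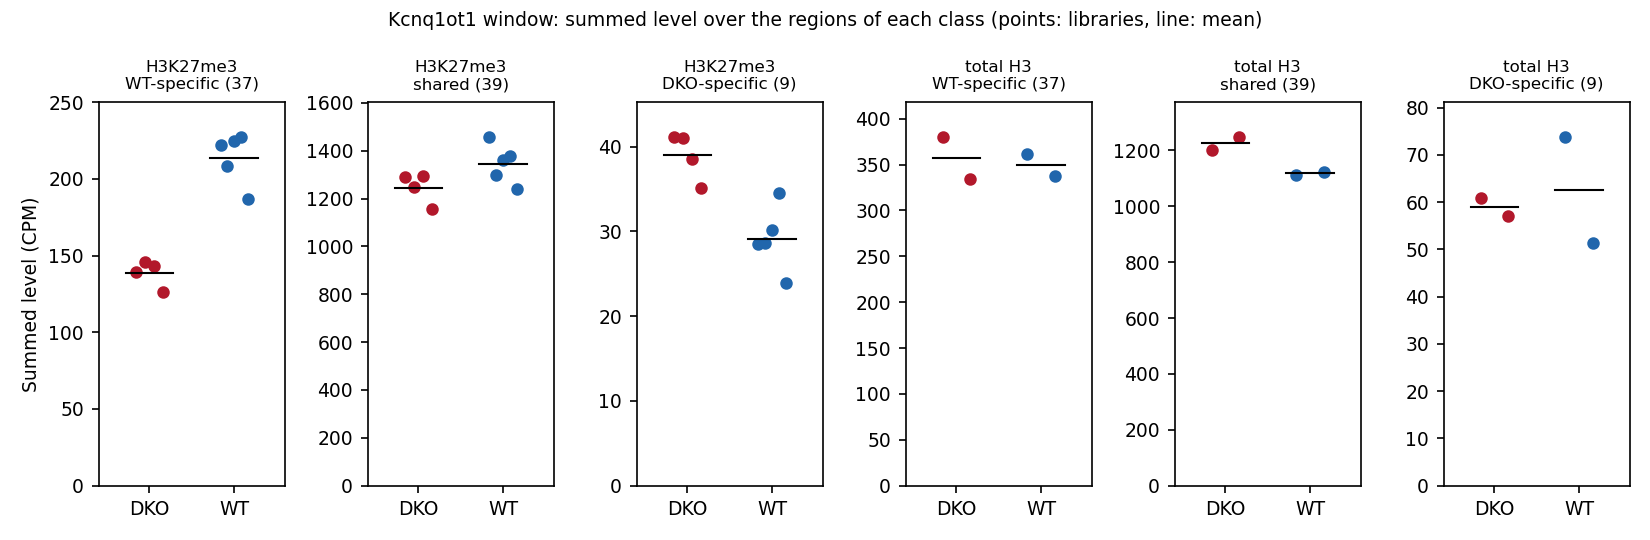
H3K27me3 (left 3 panels) and total H3 (right 3 panels) summed over the regions of each class in the Kcnq1ot1 window, in CPM of library totals, DKO left of WT, with 1 point per library and a line at the mean. The WT-specific H3K27me3 sums do not overlap between genotypes, while total H3 over the same regions does.

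Total H3 over the WT-specific regions of this window summed to 380 and 334 CPM in DKO and 361 and 337 CPM in WT. Over the shared regions it stood at 1202 and 1249 CPM in DKO and 1114 and 1122 CPM in WT. In the segment that holds regions A to D, total H3 over the 14 WT-specific regions was 167 and 143 CPM in DKO and 199 and 153 CPM in WT, a log2 ratio of -0.19 beside -0.71 for the mark. The ratio of H3K27me3 to total H3 over the whole Kcnq1ot1 window was 0.867 in DKO and 1.04 in WT, and over the Airn window 1.01 in DKO and 1.04 in WT. The Kcnq1ot1 sum includes the WT-specific regions, and its log2 ratio of DKO over WT was -0.16 in the mark and 0.10 in total H3. Over its shared regions alone the ratio to H3 was 1.02 in DKO and 1.20 in WT. Shared regions off chromosomes 6 and 11 had 1.24 in both genotypes. The Airn difference, -0.04 on the log2 scale, changed sign with single libraries, at -0.17 without WT H3 replicate 1 and 0.072 without WT H3 replicate 2. Of 33 window regions tested in total H3, 0 were called and 2 had an unadjusted p under 0.05, against 0.0211% of 18938 regions called, and DESeq2 called 0. With 2 H3 libraries per genotype these fits detect only large differences.

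Genes further out were read from the promoter table. Of 14 named neighbours of the Kcnq1ot1 domain 8 were tested, and 0 rose and 0 fell by the edgeR test. The highest was Igf2, a growth factor of the neighbouring imprinted domain, at 133 ± 20.0 CPM in DKO and 169 ± 17.8 CPM in WT (log2 fold change -0.33, SE 0.12, adjusted p = 0.242). Osbpl5, a lipid transfer protein, had 61.1 ± 4.00 CPM in DKO and 52.3 ± 7.77 CPM in WT (0.23, SE 0.16), and Th, tyrosine hydroxylase, 47.9 ± 6.70 CPM in DKO and 57.7 ± 6.24 CPM in WT (-0.27, SE 0.16). The Kcnq1ot1 promoter row had only 149 bp free of overlap and 0.40 CPM in DKO and 0.49 CPM in WT.

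The promoter table held 15 Airn domain neighbours, of which 6 were tested, and 0 rose and 0 fell. Their log2 fold changes lay between -0.35 and -0.11. T, the mesoderm factor Brachyury, was the highest at 313 ± 20.9 CPM in DKO and 349 ± 20.3 CPM in WT (-0.16, SE 0.10). Pde10a, a phosphodiesterase, followed at 264 ± 23.2 CPM in DKO and 312 ± 22.5 CPM in WT (-0.24, SE 0.10), and Mas1, next to Airn, at 27.4 ± 7.80 CPM in DKO and 30.03 ± 4.35 CPM in WT (-0.11, SE 0.20).

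Imprinted genes elsewhere did not share a direction. The promoter table held 34, of which 21 were tested, 10 higher and 11 lower in DKO, with a median log2 fold change of -0.00 and 0 passing in either direction. Grb10, an adaptor that restrains growth factor signalling, had 351 ± 36.4 CPM in DKO and 335 ± 40.6 CPM in WT (0.075, SE 0.10). Gnas, a G protein subunit, had 218 ± 32.6 CPM in DKO and 218 ± 16.5 CPM in WT (-0.0011, SE 0.11), and Peg12 135.3 ± 33.5 CPM in DKO and 154 ± 26.8 CPM in WT (-0.20, SE 0.13). The even split mixes chromosomes. Among the higher genes, Asb4, Copg2, Mest, Nap1l5 and Ppp1r9a lie on chromosome 6 and Grb10 on chromosome 11. The others higher in DKO were Dlk1, Magel2, Peg3 and Xist. Of the lower genes, Calcr lies on chromosome 6 and Commd1 on chromosome 11, and the rest elsewhere. The largest change was at Peg3, with 15.8 ± 8.02 CPM in DKO and 7.55 ± 3.41 CPM in WT (1.05, SE 0.31, edgeR adjusted p = 0.0878). Over all 30119 genes tested, with 1 row each, 137 rose and 57 fell and the median was -0.01.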

How the data were processed

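H3K27me3 and total H3 were measured by ChIP-seq. The deposited files hold raw counts, whole reads per promoter row or region, with no normalization by the authors. Per the file headers, featureCounts 2.0.3 made the promoter counts with strand ignored and left out reads that overlapped several rows. The submitters' processing notes name build mm10 and the tools MACS2, Subread, Bowtie2, featureCounts and bedtools, without roles. The WT, DKO and H3 region tables hold the same 57909 rows and were fitted together. The 38 rows left out, of chromosome M and 1 that spans most of chromosome Y, held 1.08% of promoter counts. Total counts per library set the precision, and per-library depths are given with the results.

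The test was edgeR's quasi-likelihood F test (version 4.0.16 under R 4.3.3), two-sided, for DKO over WT with no covariate, over all rows kept by filterByExpr (minimum count 10, minimum total 15), with TMM scaling and Benjamini-Hochberg adjustment, called under 0.05. The SE is the log2 fold change divided by the root of F. A low promoter count can come from overlap, as 12386 of 77489 rows have no base of their own. Sums over regions and ratios to H3 are descriptions on library totals. DESeq2 1.42.0 and other scalings, filters and library sets were alternatives. Checks on simulated counts with known fold changes were made first. Figures used Python 3.11.15, pandas 2.3.3, numpy 2.4.6 and matplotlib 3.10.9.

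The genes, windows and gene lists were chosen with earlier results of these data known. All members are named, each gene by its row with the highest mean, with the 5 highest regions per window and every region that passed. Neighbours and other imprinted genes are named where they passed or were among the 3 highest of their list. The Kcnq1ot1, Pou5f1, Cdx2, Klf4, Esrrb and Eomes rows were named after their values were seen. So were Peg3 and the other imprinted genes named for their chromosome or for being higher in DKO. A search for the genes most like Cdkn1c needed a mean count of at least 50 in its row and was not made. Gene spans and promoter sequences are from RefSeq on GRCm38.p6, which matched 9 of the 10 genes for sequence. Same-numbered DKO and WT libraries did not deviate together.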

Additional observations from a re-analysis of the deposited data

Results flagged for a closer look

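In 54 groups of 4 or 5 libraries checked for a library far from the others, 2 stood out, and chance flags about 1 in 20. In the second Slc22a18 promoter row DKO replicate 4 was the lowest at 8.33 CPM, while the other DKO libraries lay between 19.03 and 21.0 CPM. In the single DKO-specific region of the Airn window DKO replicate 4 was the highest at 5.92 CPM of library totals, with the other DKO libraries between 2.23 and 2.64, which rest on 17 reads and on 5 to 8 reads.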

How the results depend on the processing

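No promoter row of the 10 genes was called under any alternative. Over all promoter rows the 205 calls became 134 with no filter, 421 at a mean count of at least 30, 389 with a term for library sets, 57 within libraries with Old or New, 22 within those without, 90 with WT libraries of 1 stem, and 50 to 253 without 1 library. The 1630 region calls became 684 with DESeq2, 692 and 146 within libraries with and without Old or New, 879 with 1 WT stem, 1 in the interaction with total H3, and 623 to 2882 without 1 library. The split of 872 higher and 758 lower was 1418 and 460 with library totals, and 534 and 857 with TMM off chromosomes 6 and 11. The 5 window calls became 2 with DESeq2, 3 at a mean count of at least 30, 0 within either set of libraries, 2 with 1 WT stem, 0 in the interaction, and 1 to 5 without 1 library. The 4 total H3 calls became 0 with DESeq2, 2 with no filter, and 0 to 4 without 1 library. With the replicate number as a block, which also leaves out WT replicate 5, promoter calls were 111, region calls 964 and window calls 4. There the Kcnq1 regions A and D were lost, D at an edgeR adjusted p of 0.0514, and the Cdkn1c region was gained. The numbers do not pair the libraries, since no same-numbered pair correlated above 0.1.

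Some log2 fold changes that were not called changed sign. The Airn row was 0.016 with library totals, 0.010 with no filter, 0.040 with the set term, 0.22 with Old or New, 0.15 with 1 WT stem, 0.0070 with TMM off chromosomes 6 and 11, and -0.13 to 0.20 without 1 library. Slc22a3 was 0.12 with Old or New (-0.17 to 0.016 without 1 library), Cd81 0.10 without Old or New (-0.17 to 0.11), Phlda2 0.048 with 1 WT stem (-0.11 to 0.076), and the second Slc22a18 row, at 0.22 otherwise, -0.10 when the rows were summed. The Airn start region was 0.0070 without Old or New and 0.039 in the interaction, and the Phlda2 region 0.48 in the interaction and -0.16 to 0.012 without 1 library. In total H3, without 1 library, the starts of Slc22a3 (-0.12 to 0.13), Airn (-0.52 to 0.081) and Igf2r (-0.19 to 0.59) turned. Where a call was lost the cause was not tested. The log2 DKO over WT differences of the window sums and of their ratios to H3 moved by less than 1 SD under TMM factors or without 1 library, where the SD of a ratio includes the spread of the H3 libraries. The ratio difference of the Airn window still changed sign, between -0.17 and 0.072 over all its regions. Precision is limited by reads per region and by 2 H3 libraries per genotype.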
